A study of Mus musculus with 18 samples.

Results

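The comparison described here asks whether deletion of Eomes changed the RNA of stage IV natural killer (NK) cells differently from that of stage II NK cells. For each gene it is the log2 difference between KO and WT at stage IV minus the log2 difference between KO and WT at stage II, called the interaction value below. A positive value means that KO cells stood higher, relative to WT cells, at stage IV than at stage II, and a negative value means the opposite. The comparison rests on 12 of the series' 18 libraries, 3 in each of 4 groups, and on 13709 of 41388 listed genes, those that passed a filter on low counts. The groups were KO stage IV, WT stage IV, KO stage II and WT stage II. All cells came from pooled spleens of C57BL/6 mice aged 8 to 12 weeks. KO mice carried Ncr1-iCreERT2 (KI/WT), which places a tamoxifen-inducible Cre recombinase at the Ncr1 locus, together with Rosa26YFPLSL, a Cre-dependent fluorescent reporter, and Eomesfl/fl, and they received tamoxifen for 3 days. The WT label names no allele, and whether WT mice carried Cre or received tamoxifen cannot be read from it with certainty. Stage II cells were sorted as CD27+CD11b- and stage IV cells as CD27-CD11b+, in 3 experiments that the labels do not tie to replicate numbers. The number of mice in a pool is not stated, so the p-values measure the spread between these libraries.

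NK cells are innate lymphocytes that kill infected or transformed cells with granzymes and perforin and that read their targets through activating and inhibitory surface receptors. In the mouse they mature from CD27 single-positive cells, which are rich in cytokine and homing receptors, to CD11b single-positive cells, which are rich in granule proteins, Ly49 receptors and KLRG1. Eomes (eomesodermin) is a T-box transcription factor of the NK lineage and binds DNA at short sites with the core GGTGTG, and its relative Tbx21 (T-bet) drives the late steps of maturation together with Zeb2.

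The proximal promoters of 5 genes are shown as examples, and no result rests on them. Gzma and S1pr5 had the smallest p-values of all genes in the interaction. As3mt, Cd3d and Cd200r2 are genes with a called interaction whose windows hold the T-box core. The sequences are the 250 bases before the transcription start in RefSeq's mouse annotation (GRCm38.p6), written 5′ to 3′ along the gene, and capitals mark GGTGTG or its reverse complement CACACC, extended in Cd200r2 to the full 8-base T-box motif AGGTGTGA, read there on the other strand as TCACACCT. The windows are chr13:113100982-113101231 (minus strand) for Gzma, chr9:21248444-21248693 (minus strand) for S1pr5, chr19:46707208-46707457 (plus strand) for As3mt, chr9:44981536-44981785 (plus strand) for Cd3d and chr16:44866847-44867096 (plus strand) for Cd200r2.
Gzma: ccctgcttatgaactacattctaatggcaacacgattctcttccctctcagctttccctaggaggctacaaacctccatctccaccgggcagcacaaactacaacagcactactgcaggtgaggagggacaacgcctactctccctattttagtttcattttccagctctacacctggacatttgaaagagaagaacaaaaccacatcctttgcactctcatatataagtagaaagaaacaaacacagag
S1pr5: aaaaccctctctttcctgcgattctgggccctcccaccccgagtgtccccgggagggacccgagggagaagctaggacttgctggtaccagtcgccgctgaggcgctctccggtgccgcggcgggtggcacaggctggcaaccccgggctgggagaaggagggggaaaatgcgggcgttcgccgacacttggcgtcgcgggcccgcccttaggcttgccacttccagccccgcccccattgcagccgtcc
As3mt: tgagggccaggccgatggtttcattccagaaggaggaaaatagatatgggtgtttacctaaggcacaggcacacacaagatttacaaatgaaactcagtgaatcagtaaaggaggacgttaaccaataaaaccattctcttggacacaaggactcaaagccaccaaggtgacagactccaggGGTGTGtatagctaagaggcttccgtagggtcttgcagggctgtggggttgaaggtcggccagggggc
Cd3d: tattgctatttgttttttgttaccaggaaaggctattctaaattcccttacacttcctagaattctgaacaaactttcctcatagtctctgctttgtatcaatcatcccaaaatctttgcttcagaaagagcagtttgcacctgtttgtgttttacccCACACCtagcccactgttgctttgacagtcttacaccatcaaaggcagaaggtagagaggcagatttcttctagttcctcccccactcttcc
Cd200r2: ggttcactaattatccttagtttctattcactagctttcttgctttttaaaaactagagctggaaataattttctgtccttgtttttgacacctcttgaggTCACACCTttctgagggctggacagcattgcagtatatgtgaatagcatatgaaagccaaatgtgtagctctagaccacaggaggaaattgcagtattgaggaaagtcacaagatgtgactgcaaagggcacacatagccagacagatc
The Gzma and S1pr5 windows hold neither form. The core begins 68 bases before the start in As3mt, 92 bases before it in Cd3d and 148 bases before it in Cd200r2. Of the 113 genes called below, 80 had a RefSeq window, 107 windows in all, and both strands were searched. AGGTGTGA was in 3 of these windows (2.80%), those of Uck2, Shisa5 and Cd200r2, against 1.12% of all 32851 windows. GGTGTG, which lies inside AGGTGTGA, was in 24 of these windows (22.4%) and in 16.3% of all windows. Some genes have several windows, and counted by gene it was in 16 of 80 called genes and in 4952 of all 27025 genes (18.3%). These are matches of letters and say nothing of binding.

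Eomes was the first gene to check. Its level, in CPM (counts of a gene scaled to the library total) adjusted by edgeR's library factors, was 123, 114 and 89.2 in the KO stage IV libraries, against 252, 249 and 287 in the WT stage IV libraries. It was 52.6, 73.0 and 58.7 in the KO stage II libraries, against 178, 214 and 214 in the WT stage II libraries. KO and WT libraries did not overlap at either stage, and Eomes RNA remained detectable in every KO library. Eomes was lower in KO than in WT at stage IV (log2 difference -1.27, adjusted p = 0.000841) and at stage II (-1.72, adjusted p = 3.32e-05). The interaction value of Eomes itself, 0.45 ± 0.20 (SE), did not pass the test (adjusted p = 0.473).

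Total counts ran from 18684350 to 26092733 per library. KO stage IV replicate 3 and WT stage II replicate 1 detected 27912 and 29859 genes, with only 1 to 5 counts on 9854 and 10135 of them, against 17899 to 20836 genes with a count in the other 10 libraries. The deviations of these 2 libraries from their group means had a correlation of 0.542. Without both, 110 genes had a called interaction, 82 of them among the 113 called below. The calls lost there included those of Klrg1, Cxcr3, Cd226, Kcnk5, Gm4956, Arhgef10 and Ddc. The sorting markers followed their labels, with Itgam at 496 to 844 CPM in the 6 stage IV libraries and 17.4 to 56.9 CPM in the 6 stage II libraries, and Cd27 at 31.0 to 85.3 CPM in stage IV libraries and 371 to 462 CPM in stage II libraries. The libraries numbered 1 carry titles of another form than the rest. Ncr1, the gene that holds the Cre, was at 1942 to 2255 CPM in the 6 KO libraries. It was at 2118 CPM in WT stage IV replicate 1 and 2215 CPM in WT stage II replicate 1, against 3672 to 4284 CPM in the other 4 WT libraries. Xist was at 0 to 0.636 CPM in those same 4 WT libraries and at 14.9 to 45.2 CPM in the other 8 libraries. The Y-linked genes Ddx3y and Eif2s3y were at 95.1 to 214 CPM and 123 to 239 CPM over all 12 libraries, so Xist alone does not tell the sex of a pool. The part of these differences in the results was not tested, and 92 of the 113 genes called below were called again without both WT replicate 1 libraries, among 139 genes in all. With bulk RNA, fewer cells of a kind in a gate and less RNA per cell cannot be told apart.

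Eomes deletion had a different effect at the 2 stages on 113 of 13709 genes (0.824% of those tested) at an adjusted p under 0.05. Of these, 71 had a positive interaction value (0.518%) and 42 a negative one (0.306%), and 80 differed by at least 2-fold. Without adjustment, 949 positive and 482 negative genes had p under 0.05. The KO effect was itself called on 144 genes at stage IV (1.05%), 61 of them higher in KO (0.445%) and 83 lower (0.605%), and on 435 genes at stage II (3.17%), 180 of them higher in KO (1.31%) and 255 lower (1.86%). The median interaction value of all tested genes was 0.03. Within each of the 3 replicate numbers the difference had the sign of the fitted value for all 113 genes, which selecting them on the same libraries largely fixes. Its median size over the 113 genes was 1.10, 1.29 and 1.45 on the log2 scale within the numbers 1, 2 and 3.

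The positive genes were mostly lower in KO cells at stage II and went both ways at stage IV. Among the 71, the median KO effect was 0.10 on the log2 scale at stage IV and -1.41 at stage II. At stage IV the KO libraries all lay above the WT libraries for 23 of them, all below for 18 and overlapped for 30. At stage II they lay above for 3, below for 62 and overlapped for 6, beside 13.5% and 19.7% of all tested genes whose KO and WT libraries did not overlap, in either direction. The negative genes went the other way, with a median KO effect of -0.43 at stage IV and 0.50 at stage II. At stage IV the KO libraries lay above the WT libraries for 3 of the 42, below for 28 and overlapped for 11. At stage II they lay above for 34 and overlapped for 8. By the tests within each stage, 70 of the 113 genes were called at stage II alone, 23 at stage IV alone, 9 at both stages with the same sign, 1 at both with opposite signs and 10 at neither. A call at 1 stage and not at the other is not itself the test of a difference, which is the interaction value.

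**Figure D1:**
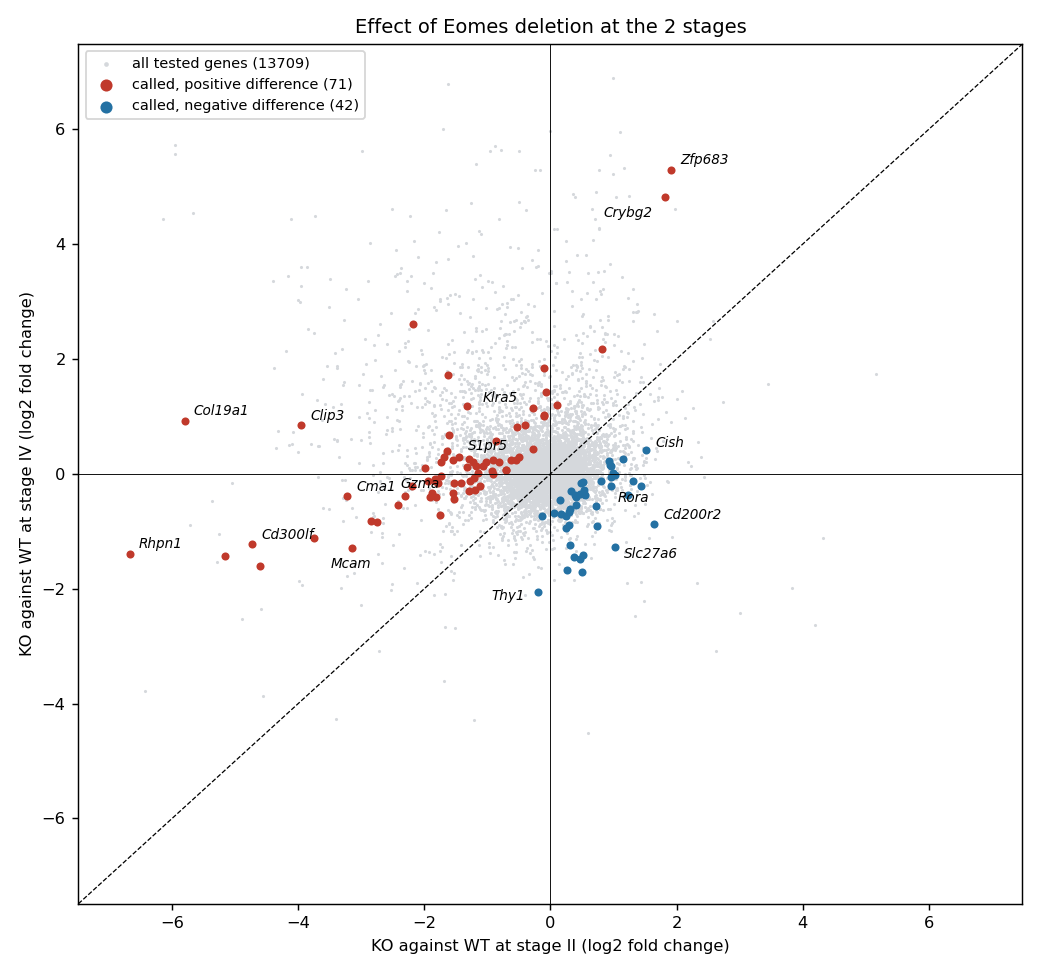
KO against WT log2 fold change of each of 13709 tested genes at stage IV (vertical axis) and at stage II (horizontal axis). Red points are the 71 genes with a called positive difference, which lie above the dashed line of equal effects, and blue points are the 42 with a called negative difference, which lie below it.

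A first group of called genes held the granule proteins of killing Gzma and Gzmm. Gzma encodes granzyme A, a tryptase of the cytotoxic granule, and had the highest mean count of the genes with a called interaction. It was at 19609, 15074 and 15133 CPM in KO stage IV libraries, against 16901, 15385 and 14256 CPM in WT stage IV libraries. At stage II it was at 753, 941 and 942 CPM in KO libraries, against 3248, 3697 and 3483 CPM in WT libraries. KO and WT overlapped at stage IV, while every KO library lay below every WT library at stage II. The interaction value was 2.08 ± 0.18 (SE, adjusted p = 0.00055), from a KO effect of 0.10 at stage IV (adjusted p = 0.94) and -1.98 at stage II (adjusted p = 7.44e-06). Per kilobase of gene length the median Gzma level was 17353 RPKM in KO and 16669 RPKM in WT stage IV cells, and 1090 RPKM in KO and 3968 RPKM in WT stage II cells.

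Gzmm, granzyme M, went the other way along maturation but showed the same kind of interaction. It was at 7.32, 6.15 and 8.33 CPM in KO stage IV libraries, against 5.40, 8.83 and 9.49 CPM in WT stage IV libraries. In stage II cells the level was 17.5, 18.9 and 23.9 CPM in KO libraries, against 65.3, 78.2 and 70.2 CPM in WT libraries. The groups overlapped at stage IV and were apart at stage II, and the interaction value was 1.71 ± 0.28 (SE, adjusted p = 0.0126). The call held in 9 of 12 fits that each left out 1 library, and was lost without KO stage II replicate 1, WT stage II replicate 2 or WT stage II replicate 3 (log2 1.48 to 1.83 over the 12). Of 18 tested cytotoxic effector genes, these 2 were called, both positive, and the list's median interaction value was 0.33 against 0.03 for all tested genes. The list was not uniform, with 14 values above 0 and 4 below, and 8 positive and 2 negative at an unadjusted p under 0.05. Within the stages, 4 were called lower and 2 higher in KO at stage II, and 1 higher at stage IV. Gzmc and Tnfsf10 stood higher in every KO than in every WT stage II library. Prf1, the pore-forming protein perforin, had an interaction value of 0.72 ± 0.17 (adjusted p = 0.0858), with a KO effect of -0.21 at stage IV that did not pass the test (adjusted p = 0.699) and one of -0.94 at stage II that did (adjusted p = 0.000716). Gzmb, granzyme B, had 0.90 ± 0.34 (adjusted p = 0.364).

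Genes that mark mature NK cells were a second group. S1pr5, the sphingosine-1-phosphate receptor that lets NK cells leave lymphoid tissue, was at 382, 311 and 327 CPM in KO stage IV libraries, against 298, 287 and 247 CPM in WT stage IV libraries. Among stage II libraries it stood at 20.02, 20.41 and 17.17 CPM in KO libraries, against 54.3, 48.7 and 54.8 CPM in WT libraries. KO libraries were above WT libraries at stage IV, though that effect of 0.29 did not pass the test (adjusted p = 0.368), and below them at stage II (-1.45, adjusted p = 2.05e-05). The interaction value was 1.75 ± 0.16 (SE, adjusted p = 0.00055).

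Klrg1, an inhibitory receptor of terminally mature cells, was at 842, 908 and 908 CPM in KO stage IV libraries, against 952, 769 and 496 CPM in WT stage IV libraries. Its stage II levels were 16.8, 20.3 and 12.9 CPM in KO libraries, against 48.1, 37.2 and 37.5 CPM in WT libraries. Again the groups overlapped at stage IV and were apart at stage II (interaction 1.56 ± 0.30, adjusted p = 0.0345). Zeb2, a zinc finger repressor required for the last step of maturation, was at 556, 538 and 502 CPM in KO stage IV libraries, against 489, 462 and 391.5 CPM in WT stage IV libraries. The stage II values were 33.5, 47.4 and 31.2 CPM in KO libraries, against 60.6, 65.4 and 85.0 CPM in WT libraries (interaction 1.16 ± 0.23, adjusted p = 0.0392). KO lay above WT at stage IV and below it at stage II, and only the stage II effect of -0.91 passed the test (adjusted p = 0.00755). The Klrg1 and Zeb2 calls each held in 2 of the 12 fits with 1 library left out, at log2 values of 1.30 to 1.76 for Klrg1 and 0.97 to 1.34 for Zeb2.

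Cma1 encodes the serine protease chymase 1. It was at 677, 633 and 690 CPM in KO stage IV libraries, against 1056, 810 and 755 CPM in WT stage IV libraries. At stage II it was at 2.59, 7.15 and 3.09 CPM in KO libraries, against 43.4, 37.4 and 39.1 CPM in WT libraries. KO lay below WT at both stages. The stage IV effect of -0.39 did not pass the test (adjusted p = 0.766) and the stage II effect of -3.22 did (adjusted p = 4.56e-05), and the interaction value was 2.83 ± 0.38 (adjusted p = 0.00373). Cma1 is also a mast cell gene. The other 9 mast cell and basophil markers were each at most 4.94 CPM in every library, except Prss34 and Mcpt8, at 37.3 and 10.8 CPM in KO stage II replicate 2. Their part in the result was not tested, and the Cma1 call held in all 12 fits with 1 library left out, that library included.

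Of 16 tested mature NK markers these 4 (Klrg1, S1pr5, Cma1 and Zeb2) were called, all positive, and the list's median was 0.54. Itgam, which encodes the CD11b used for sorting, had an interaction value of 1.13 ± 0.29 (adjusted p = 0.129), with 21.5 ± 4.33 CPM in KO and 50.2 ± 7.62 CPM in WT stage II libraries (mean ± SD, n = 3 each). Prdm1 (Blimp-1) had 0.59 ± 0.24 (adjusted p = 0.389) and Ly6c2 0.36 ± 0.31 (adjusted p = 0.78).

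**Figure D2:**
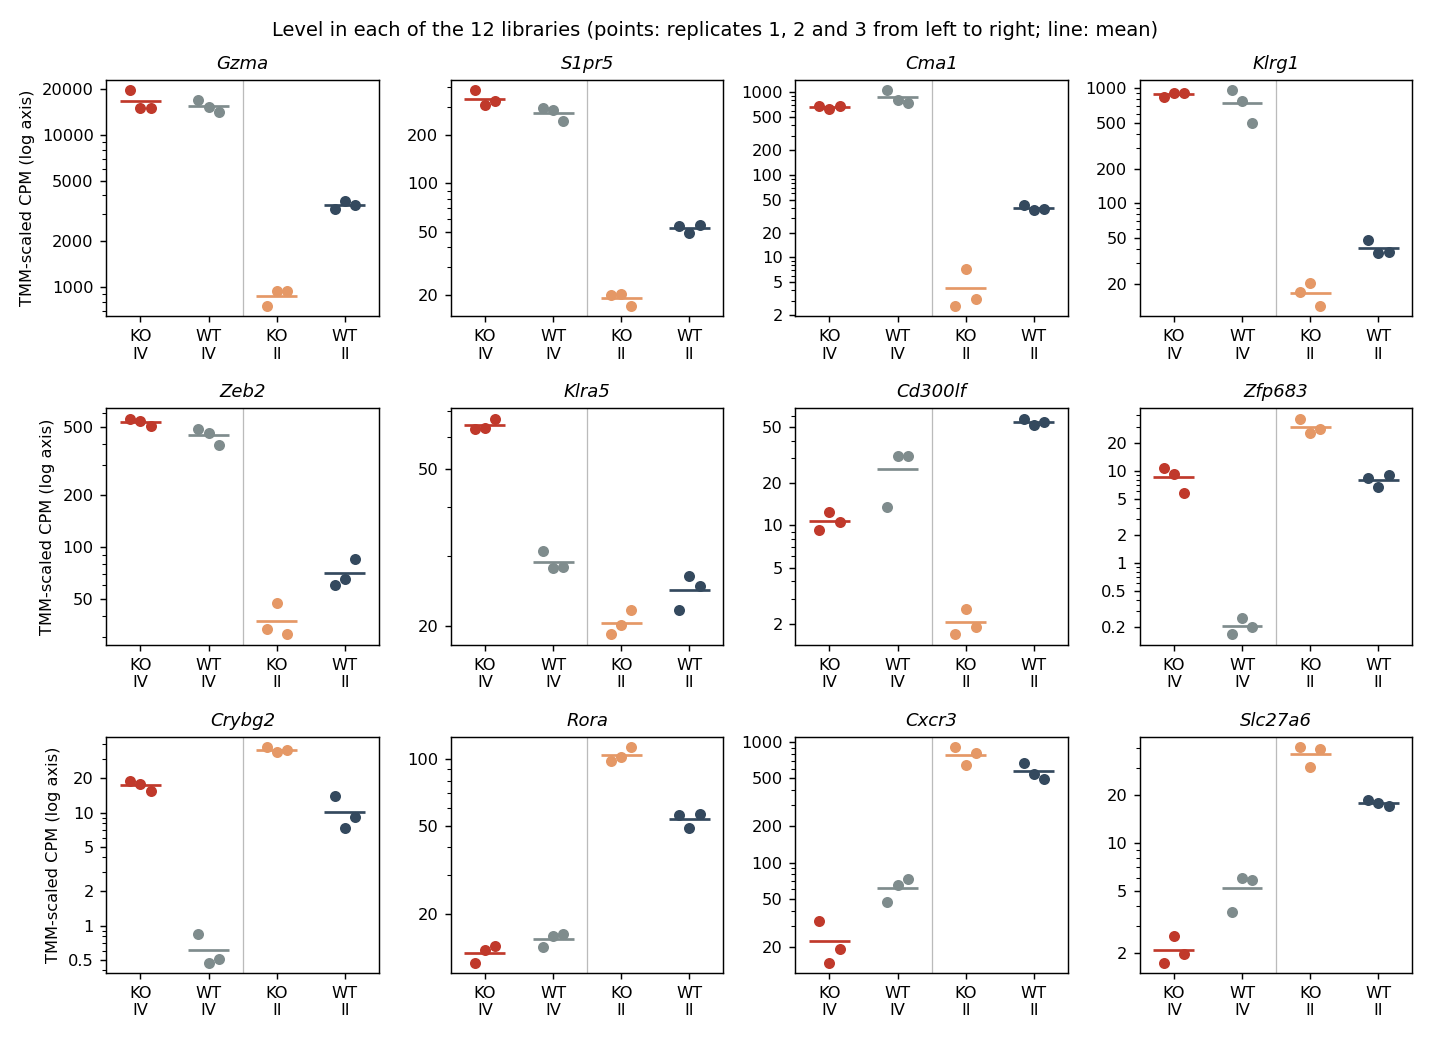
TMM-scaled CPM (log axis) of 12 genes in each of the 12 libraries, with KO stage IV, WT stage IV, KO stage II and WT stage II from left to right and a line at each mean of 3 libraries. Gzma, S1pr5, Klrg1 and Zeb2 sit close together at stage IV and lower in KO at stage II, while Zfp683 and Crybg2 are farthest apart at stage IV.

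The Ly49 receptors, which bind MHC class I on other cells, stood lower in KO at stage II for most members. Of 11 tested Ly49 genes, 5 had a called interaction, all positive: Klra5, Klra6, Klra7, Klra8 and Klra9. All 11 interaction values were above 0, with a median of 0.92, beside 7498 of all 13709 tested genes above 0. At stage II, 7 of the 11 were called lower in KO and none higher, with a median KO effect of -1.12. At stage IV 1 was called, and the median was -0.22. Klra7 (Ly49G) was at 1002, 882 and 792 CPM in KO stage IV libraries, against 856, 864 and 861 CPM in WT stage IV libraries. In stage II cells the level was 386, 499 and 454 CPM in KO libraries, against 752, 931 and 865 CPM in WT libraries. These values overlapped at stage IV and did not at stage II (interaction 0.98 ± 0.17, adjusted p = 0.0195).

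Klra5 was the Ly49 gene with another pattern. It was at 63.1, 63.3 and 66.8 CPM in KO stage IV libraries, against 30.84, 27.98 and 28.15 CPM in WT stage IV libraries. Among stage II libraries it stood at 19.03, 20.08 and 21.92 CPM in KO libraries, against 21.95, 26.72 and 25.26 CPM in WT libraries. KO libraries lay well above WT libraries at stage IV and just below them at stage II. It was higher in KO at stage IV by 1.15 (adjusted p = 0.000102), and its stage II effect of -0.28 did not pass the test, for an interaction value of 1.43 ± 0.14 (adjusted p = 0.00106). Ly49 genes are close paralogs that lie side by side on chromosome 6, and reads shared between them could be split or dropped by the authors' counting, so their single values are uncertain. With 1 library left out, the number of called Ly49 genes lay between 1 and 5, and it was 0 when all 18 libraries were fitted together. Klra5 kept its call in all 12 such fits, Klra7 in 3, Klra9 in 5 and Klra6 in 1.

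Trafficking receptors were mixed. Besides S1pr5, Ccr2 had a positive value. This receptor for the chemokine CCL2 was at 430, 377 and 361 CPM in KO stage IV libraries, against 320, 362 and 376 CPM in WT stage IV libraries, which overlapped. Its stage II levels were 472, 459 and 467 CPM in KO libraries, against 920, 1049 and 972 CPM in WT libraries, which were apart. The interaction value was 1.22 ± 0.14 (adjusted p = 0.00212).

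Cxcr3, the receptor for interferon-induced chemokines, had a negative value of -1.94 ± 0.36 (adjusted p = 0.0272). It was at 32.8, 14.8 and 19.3 CPM in KO stage IV libraries, against 47.2, 65.1 and 73.4 CPM in WT stage IV libraries, and here KO was lower (-1.48, adjusted p = 0.0136). The stage II values were 906, 653 and 807 CPM in KO libraries, against 672, 545 and 499 CPM in WT libraries, which overlapped. The difference within number 1 was -0.96, against -2.40 and -2.62 within numbers 2 and 3, and the call held in 4 of the 12 fits with 1 library left out (log2 -2.36 to -1.76). Of 26 tested trafficking receptors, 2 were called positive and 1 negative, with a median of 0.24. Cxcr6, a chemokine receptor of liver-resident lymphocytes, had a value of 1.78 ± 0.67 that did not pass (adjusted p = 0.348), and its gene overlaps Fyco1 on the other strand.

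Transcription factors were called in both directions, 2 positive and 3 negative of 41 tested, with a median of 0.02. Zfp683 encodes Hobit, a factor of tissue-resident lymphocytes and ILC1s. It was at 10.7, 9.18 and 5.69 CPM in KO stage IV libraries, against 0.169, 0.256 and 0.204 CPM in WT stage IV libraries. At stage II it was at 36.7, 26.1 and 28.2 CPM in KO libraries, against 8.45, 6.75 and 8.98 CPM in WT libraries. KO lay above WT at both stages, by 5.30 on the log2 scale at stage IV (adjusted p = 6.18e-06) and by 1.91 at stage II (adjusted p = 0.000223), and the interaction value was 3.39 ± 0.42 (adjusted p = 0.00314). WT stage IV cells had the lowest level of the 4 groups, near 0, so the sizes of the stage IV effect and of the interaction value are uncertain. The KO level was lower at stage IV than at stage II, with means of 8.51 and 30.3 CPM, against 0.210 and 8.06 CPM in WT.

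The 3 negative factors of that list were higher in KO cells at stage II. Rora, a nuclear receptor of innate lymphoid cells, was at 12.1, 13.9 and 14.4 CPM in KO stage IV libraries, against 14.3, 15.9 and 16.4 CPM in WT stage IV libraries. In stage II cells the level was 97.9, 103 and 113 CPM in KO libraries, against 56.1, 49.1 and 56.4 CPM in WT libraries. The groups overlapped at stage IV and were apart at stage II (interaction -1.16 ± 0.15, adjusted p = 0.00314). Maf, a bZIP factor, had an interaction value of -1.04 ± 0.20 (adjusted p = 0.0322), from a KO effect of -0.02 at stage IV and 1.02 at stage II. Ikzf2, the zinc finger factor Helios, had -0.88 ± 0.17 (adjusted p = 0.0378), from 0.26 at stage IV and 1.14 at stage II. Rora kept its call in all 12 fits with 1 library left out and lost it when all 18 libraries were fitted together. With 1 library left out, the call held in 3 of 12 fits for Maf (log2 -1.21 to -0.98) and in 2 for Ikzf2 (-1.02 to -0.82). Snai3, a transcription factor outside the list, was also called negative, with -1.28 (adjusted p = 0.0221, held in 4 of these 12 fits). Tbx21 had 0.20 ± 0.31 (adjusted p = 0.90), with overlapping libraries at both stages.

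Other surface receptors also differed in both directions, 2 positive and 4 negative of 34 tested, with a median of 0.01. Cd300lf, an inhibitory receptor for membrane lipids, was at 9.28, 12.4 and 10.6 CPM in KO stage IV libraries, against 13.5, 31.2 and 30.9 CPM in WT stage IV libraries. Among stage II libraries it stood at 1.68, 2.55 and 1.88 CPM in KO libraries, against 56.9, 51.3 and 54.5 CPM in WT libraries. KO was lower at both stages, by less at stage IV (-1.22, adjusted p = 0.045) than at stage II (-4.73, adjusted p = 7.44e-06), and the interaction value was 3.51 ± 0.39 (adjusted p = 0.00212). Cd300lf, with 5939 counts over the 12 libraries, overlaps Rab37, with 78625, on the other strand, and no source used here gives the strand setting of the counting. Lair1, a collagen-binding inhibitory receptor, had 1.20 ± 0.25 (adjusted p = 0.0481).

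Cd200r1 and Cd200r2, a pair of neighbouring paralogs of the CD200 receptor family, were higher in KO at stage II. Cd200r2 was at 0.437, 0.706 and 0.732 CPM in KO stage IV libraries, against 0.844, 1.32 and 1.38 CPM in WT stage IV libraries. Its stage II levels were 112, 94.7 and 106 CPM in KO libraries, against 47.55, 26.97 and 24.99 CPM in WT libraries. KO lay below WT at stage IV and above it at stage II, and only the stage II effect of 1.65 passed the test (adjusted p = 0.000699; interaction -2.52 ± 0.44, adjusted p = 0.0185). Cd200r1 had -1.64 ± 0.34 (adjusted p = 0.0484). Reads shared by these paralogs make their single values uncertain.

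Cd226, the activating receptor DNAM-1, was at 43.4, 31.7 and 31.5 CPM in KO stage IV libraries, against 37.6, 90.6 and 72.3 CPM in WT stage IV libraries. The stage II values were 338, 353 and 397 CPM in KO libraries, against 202, 223 and 229 CPM in WT libraries. WT stage IV replicate 1 lay among the KO libraries, and neither stage passed the test alone, while the interaction value was -1.65 ± 0.34 (adjusted p = 0.0454). The difference within number 1 was -0.54, against -2.17 and -1.995 within numbers 2 and 3. Klrb1b, an inhibitory NKR-P1 receptor, had -0.82 ± 0.17 (adjusted p = 0.044). With 1 library left out, the call held in 6 of 12 fits for Cd200r2, in 2 each for Lair1, Cd200r1 and Klrb1b, and in 1 for Cd226.

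**Figure D3:**
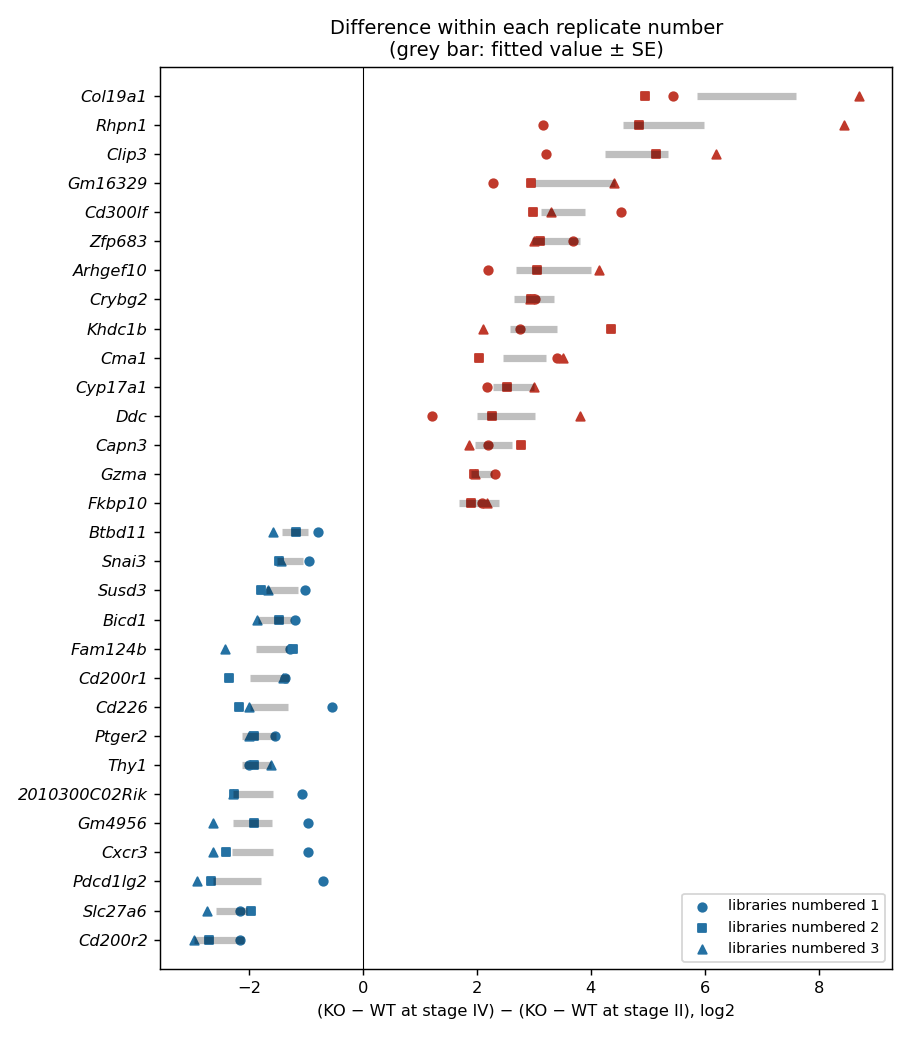
Difference between the KO against WT log2 values of stage IV and stage II within each replicate number (points) for the 15 highest and 15 lowest genes called with a mean of at least 1 CPM, with grey bars for the fitted value ± SE. All points lie on the side of 0 of their fitted value, and the points of number 1 lie nearest to 0 for Cxcr3, Cd226 and Gm4956.

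Among 24 tested markers of ILC1s and of tissue residence, 2 were called positive (Zfp683 and Kcnk5) and 1 negative (Cd200r1), with a median of -0.34. Within the stages, 7 of the 24 were called higher in KO and 1 lower at stage IV, against 13 higher and 2 lower at stage II, and the medians of the KO effect were 0.25 at stage IV and 1.01 at stage II. Itga1 (CD49a) was higher in KO at both stages, by 1.34 at stage IV (adjusted p = 0.014) and 1.77 at stage II (adjusted p = 0.00049), and its interaction value of -0.43 ± 0.32 did not pass (adjusted p = 0.729). Itga1, with 3477 counts, overlaps Pelo, with 1973, on the same strand, so its values are uncertain. Kcnk5, a potassium channel, had 1.38 ± 0.28 (adjusted p = 0.0392). That call held in 2 of the 12 fits with 1 library left out (log2 1.16 to 1.55) and was lost when all 18 libraries were fitted together.

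Of 18 tested early NK markers, 2 were called, both negative. Thy1, a surface glycoprotein of immature NK cells and ILCs, was at 2.89, 2.83 and 3.46 CPM in KO stage IV libraries, against 11.4, 15.5 and 11.5 CPM in WT stage IV libraries. At stage II it was at 65.8, 43.0 and 47.5 CPM in KO libraries, against 65.0, 62.0 and 51.7 CPM in WT libraries. KO was lower at stage IV (-2.06, adjusted p = 0.0002) and overlapped WT at stage II, and the interaction value was -1.87 ± 0.26 (adjusted p = 0.00376). The other was Cxcr3. Cd27, the other sorting marker, had -0.73 ± 0.25 (adjusted p = 0.301) and Il7r, the IL-7 receptor, -0.97 ± 0.34 (adjusted p = 0.301). The list's median was -0.01.

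Cish, a negative feedback regulator of IL-2 and IL-15 signalling, was the 1 called gene of 26 on that list. It was at 12.1, 15.5 and 18.9 CPM in KO stage IV libraries, against 10.97, 13.91 and 10.15 CPM in WT stage IV libraries. In stage II cells the level was 57.9, 58.7 and 63.9 CPM in KO libraries, against 22.4, 20.7 and 19.9 CPM in WT libraries. The groups overlapped at stage IV and were apart at stage II (interaction -1.11 ± 0.22, adjusted p = 0.0401, held in 3 of the 12 fits with 1 library left out). Of 30 actin and adhesion genes, Lsp1, an actin-binding protein of leukocytes, was called with -0.61 ± 0.13 (adjusted p = 0.0464), and that call was lost in each of the 12 fits with 1 library left out (log2 -0.70 to -0.56).

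No gene was called on 12 other lists in edgeR's test: glycolysis, oxidative phosphorylation, the interferon response, the cell cycle, stress and immediate early genes, the TGF-beta pathway, regulators of apoptosis, cytokines and chemokines, and markers of myeloid, B, erythroid and stromal cells. Mitochondrially encoded and sex-linked transcripts had none either. Of all tested genes 0.824% were called, and no call on lists of this size is near that share. The Xist difference between libraries was alike at both stages, so the interaction value of Xist itself would not show it. Whether other differences between those libraries entered the interaction was not tested. At an unadjusted p under 0.05 the cell cycle list had 8 positive genes of 40, the interferon list 6 negative genes of 26, the B cell list 3 positive and 2 negative genes of 12, and the remaining lists 0 to 3 genes each. The 2 lists' medians were 0.29, with 34 of 40 values above 0, and -0.18, with 20 of 26 below 0. All 8 tested mitochondrially encoded transcripts had values above 0, with a median of 0.39. Of all 13709 tested genes, 7498 had values above 0 and 6211 below, and genes of a list are not independent. Without WT stage II replicate 1, 4 cell cycle genes were called. DESeq2 called 1 gene each on the cytokine, interferon and myeloid lists and 2 on the B cell list, and limma with quality weights called 1 each on the B cell, glycolysis, interferon and myeloid lists. Bcl2 and Bcl2l11, which set NK cell survival, had values of 0.22 ± 0.21 and 0.18 ± 0.16 (adjusted p = 0.809 and 0.786), and Ifng -0.97 ± 0.50 (adjusted p = 0.546).

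**Figure D4:**
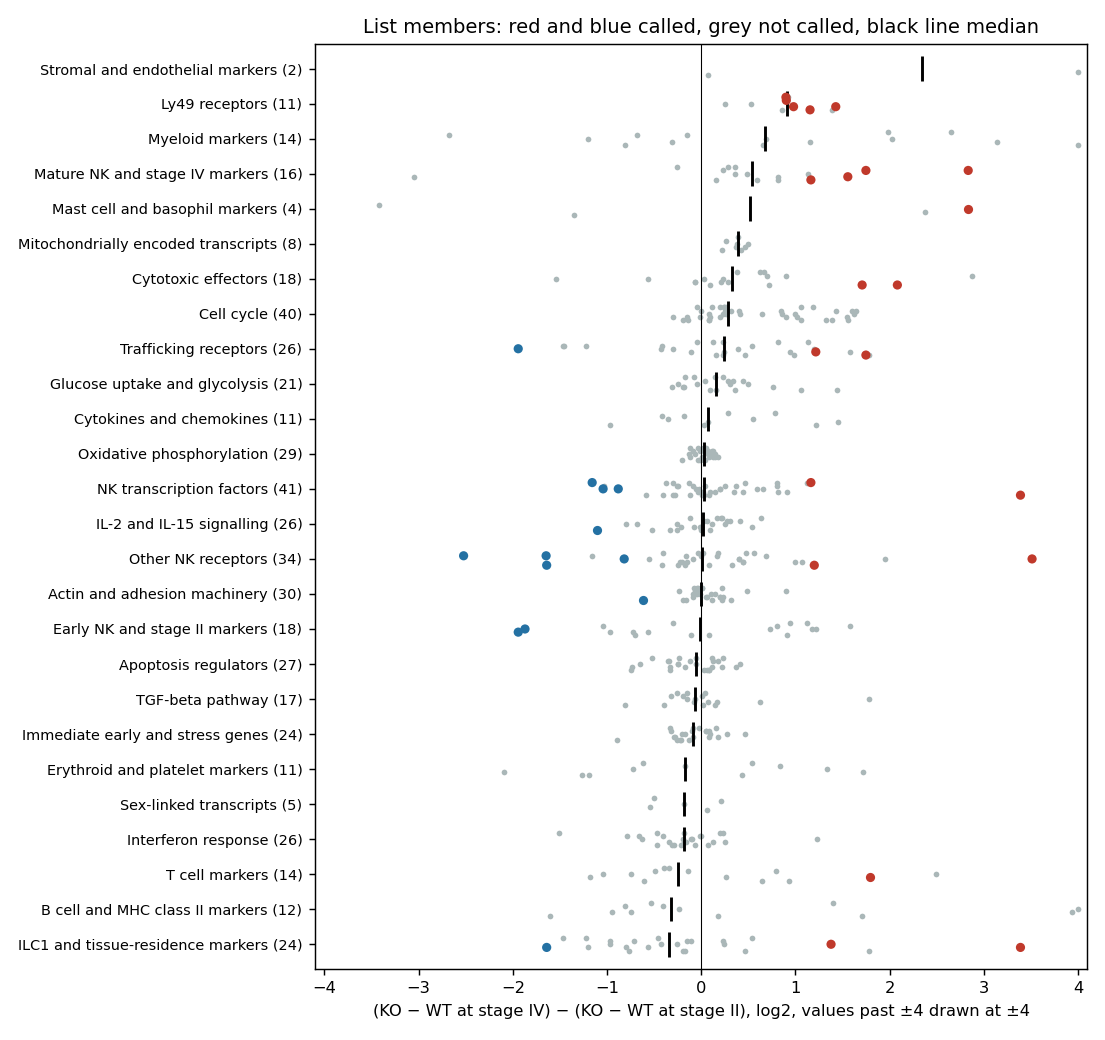
Interaction value (log2, horizontal axis) of each tested member of 26 gene lists, with called members in red (positive) or blue (negative), other members in grey and a black line at the list's median. The Ly49 list has all 11 members above 0, and the called members of the transcription factor and other receptor lists lie on both sides.

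Summed markers of other cell types differed between the groups. The summed CPM of 17 B cell and MHC class II genes was 175 to 239 in KO stage IV libraries, against 241 to 369 in WT stage IV libraries, and 2061 to 2200 in KO stage II libraries, against 1534 to 1775 in WT stage II libraries. It thus moved in the same direction as the negative genes. Ighm and Cd74 made up most of it, while Pax5, a transcription factor of B cells, was at most 0.206 CPM in any library. Cd79b was at 23.2 to 30.7 CPM in KO and 10.4 to 14.1 CPM in WT stage II libraries. Cd22 went the other way, at 38 to 51.7 CPM in KO and 52.5 to 62.3 CPM in WT stage II libraries. Of the 12 tested members, 5 had interaction values above 0 and 7 below. The sum of 19 T cell genes was 477 to 571 in KO stage IV libraries, against 533 to 632 in WT stage IV libraries, and 1524 to 1862 in KO stage II libraries, against 1443 to 1549 in WT stage II libraries. Cd4 and Cd8a were at most 0.67 and 0.325 CPM in any library, while Trbc1 was at 204 to 628 CPM over the 12 libraries. Cd3d, a chain of the T cell receptor complex, was itself called, with 5.02, 3.70 and 6.10 CPM in KO stage IV libraries, against 4.641, 3.498 and 4.437 CPM in WT stage IV libraries. Among stage II libraries it stood at 46.4, 37.2 and 51.0 CPM in KO libraries, against 133, 141 and 121 CPM in WT libraries (interaction 1.79 ± 0.25, adjusted p = 0.00391). Cd3g, another chain of that complex, overlapped at 76.1 to 115 CPM in KO and 109 to 132 CPM in WT stage II libraries. Cd3e was at 7.97 to 13.6 CPM in KO and 9.48 to 47 CPM in WT stage II libraries. Camk4, at 37.8 to 40.7 CPM in KO and 10.2 to 22.5 CPM in WT stage II libraries, and Tcrg-C4, at 290 to 398 CPM in KO and 150 to 231 CPM in WT stage II libraries, were higher in KO there (adjusted p = 0.00839 for Camk4 and 0.0134 for Tcrg-C4). The part of other cells in these results was not tested.

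The largest differences among genes with a mean of at least 1 CPM lay outside the lists. Clip3, a microtubule-associated protein, was at 2.57, 3.28 and 2.64 CPM in KO stage IV libraries, against 1.86, 1.37 and 1.48 CPM in WT stage IV libraries. Its stage II levels were 1.42, 1.56 and 0.493 CPM in KO libraries, against 9.75, 23.6 and 21.2 CPM in WT libraries. KO lay above WT at stage IV and far below it at stage II, and only the stage II effect passed the test alone (-3.95, adjusted p = 8.69e-05). The interaction value was 4.80 ± 0.55 (adjusted p = 0.00212). Rhpn1, which encodes a rhophilin, was at 16.5, 22.3 and 30.4 CPM in KO stage IV libraries, against 80.7, 53.8 and 47.2 CPM in WT stage IV libraries. The stage II values were 0 to 0.164 CPM in KO libraries, against 5.72 to 12.9 CPM in WT libraries (interaction 5.28 ± 0.71, adjusted p = 0.00376). Col19a1, a collagen chain, had a fitted value of 6.72 ± 0.87 (adjusted p = 0.00314) at 2.98 CPM or less in every library, with 0 to 0.0731 CPM in KO stage II libraries. Fitted values of genes at or near 0 in a group depend on the prior count and give no bound.

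Slc27a6, a fatty acid transport protein, was the 1 gene called at both stages with opposite signs. It was at 1.75, 2.58 and 1.99 CPM in KO stage IV libraries, against 3.67, 5.97 and 5.81 CPM in WT stage IV libraries. At stage II it was at 40.3, 30.4 and 39.3 CPM in KO libraries, against 18.83, 17.95 and 17.12 CPM in WT libraries. All KO libraries lay below WT at stage IV (-1.28, adjusted p = 0.011) and above WT at stage II (1.03, adjusted p = 0.00567), for an interaction value of -2.31 ± 0.28 (adjusted p = 0.00275).

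Apol7e, Btbd11, Bicd1, Ptger2, Pdcd1lg2, 2010300C02Rik, Gm4956 and the antisense transcript Gm26740 were called lower in KO at stage IV, with no called effect at stage II and interaction values from -2.20 to -0.92. With 1 library left out, the interaction call held in all 12 fits for Apol7e and Gm26740 and in 10 for Ptger2. It held in 4 each for Btbd11 and 2010300C02Rik, in 3 each for Pdcd1lg2 and Gm4956 and in 1 for Bicd1. Ptger2, a receptor for prostaglandin E2, was at 3.22, 2.66 and 2.85 CPM in KO stage IV libraries, against 7.59, 8.40 and 7.60 CPM in WT stage IV libraries. In stage II cells the level was 26.2, 16.4 and 19.9 CPM in KO libraries, against 21.2, 13.7 and 13.2 CPM in WT libraries, which overlapped. Its interaction value of -1.82 ± 0.30 (adjusted p = 0.014) was lost only without KO stage IV replicate 2 or WT stage IV replicate 2, among the fits with 1 library left out. Gm4956 was at 144, 161 and 152 CPM in KO stage IV libraries, against 264, 548 and 654 CPM in WT stage IV libraries, where WT replicate 1 lay nearest to KO (interaction -1.94 ± 0.34, adjusted p = 0.0201). The difference was -0.96 within number 1, against -1.91 and -2.63 within numbers 2 and 3.

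The same interaction can be read along maturation. Stage IV differed from stage II on 3399 genes in KO cells (24.8%) and on 3572 genes in WT cells (26.1%). The 71 positive genes had a median stage IV against stage II difference of 1.90 in KO and 0.47 in WT on the log2 scale. Among them, 53 were called higher and 8 lower at stage IV in KO, against 35 higher and 23 lower in WT, and 13 had stage differences of opposite sign in KO and WT. The 42 negative genes had medians of -1.93 in KO and -0.89 in WT, with 1 called higher and 36 lower at stage IV in KO, against 9 higher and 29 lower in WT, and 8 of opposite sign. The stage difference was the larger one in KO for 51 of the 71 and for 35 of the 42. Gzma was higher at stage IV by 4.24 in KO and by 2.16 in WT, S1pr5 by 4.14 in KO and 2.40 in WT, and Cma1 by 7.29 in KO and 4.45 in WT. Zfp683 was lower at stage IV by less in KO (-1.84) than in WT (-5.23), and Ccr2 had no called stage difference in KO (-0.26, adjusted p = 0.0742) and was lower at stage IV in WT (-1.48, adjusted p = 4e-07). Klra5 was higher at stage IV in KO (1.66, adjusted p = 1.12e-07) and did not pass in WT (0.24, adjusted p = 0.111). These readings share their libraries with the interaction and add no independent evidence.

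**Figure D5:**
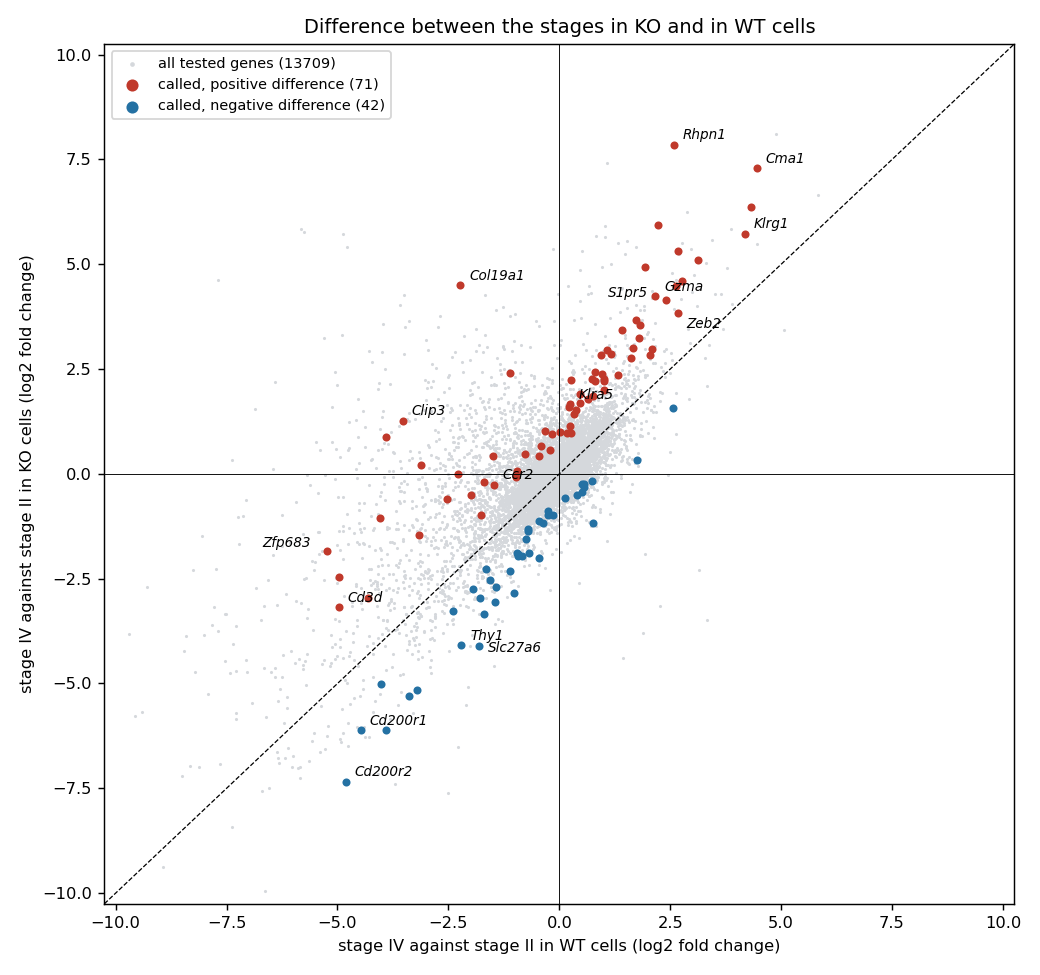
Stage IV against stage II log2 fold change of each of 13709 tested genes in KO cells (vertical axis) and in WT cells (horizontal axis). The 71 positive genes (red) lie above the dashed line of equal stage differences and the 42 negative genes (blue) below it, with Cma1, Klrg1 and Gzma at the upper right.

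The genes called in 1 stage were followed in the other, which uses separate libraries. The interaction includes the libraries that selected these genes, so the selection favours their calls in it. Of all tested genes, 0.445% were called higher and 0.605% lower in KO at stage IV, and 1.31% and 1.86% at stage II. A called interaction was found for 0.824% of all tested genes. Of 180 genes called higher in KO at stage II, 133 had the same sign at stage IV, 25 were called there too (13.9%) and 23 had a called interaction. Of 255 called lower at stage II, 201 had the same sign at stage IV, 37 were called there too (14.5%) and 57 had a called interaction. From the other side, 25 of 61 genes called higher at stage IV (41.0%) and 37 of 83 called lower (44.6%) were called with the same sign at stage II. Across all tested genes, which are not independent, the KO effects at the 2 stages had a Pearson correlation of -0.11 and a Spearman correlation of 0.05.

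Some called genes lie next to each other. Within 100 kb, 24 of the 113 had another called gene, in 19 pairs, by the positions in the files. On chromosome 4, Zfp683 (134053838 to 134058996), Crybg2 (134065912 to 134092504) and Ubxn11 (134102570 to 134127593) are consecutive on the plus strand and were all positive. Crybg2 was at 18.8, 17.8 and 15.6 CPM in KO stage IV libraries, against 0.844, 0.469 and 0.510 CPM in WT stage IV libraries. Among stage II libraries it stood at 37.7, 34.2 and 35.5 CPM in KO libraries, against 14.0, 7.25 and 9.16 CPM in WT libraries, so that KO lay above WT at both stages as for Zfp683 (interaction 3.00 ± 0.35, adjusted p = 0.00212). Ubxn11 was higher in KO at stage IV alone (1.01, adjusted p = 0.000841; interaction 1.11 ± 0.16, adjusted p = 0.00563). Crybg2, with 4491 counts in all, overlaps Cd52, with 447917, and Ubxn11, with 18299, overlaps Sh3bgrl3, with 293378, each on the other strand, so that reads of these partners cannot be told apart without the strand setting.

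On chromosome 19, Cyp17a1, Borcs7 and As3mt lie within 46667165 to 46741095 and were all positive. As3mt, an arsenic methyltransferase, was at 353, 370 and 370 CPM in KO stage IV libraries, against 348, 410 and 359 CPM in WT stage IV libraries. Its stage II levels were 47.4, 58.7 and 43.6 CPM in KO libraries, against 134, 187 and 175 CPM in WT libraries. The groups overlapped at stage IV and were apart at stage II (interaction 1.70 ± 0.20, adjusted p = 0.00212). Gzma and Cdc20b on chromosome 13, with 2630 bases between them, were both positive, as were the 5 called Ly49 genes on chromosome 6. Thy1 and Mcam on chromosome 9 differed in direction. Mcam, an adhesion molecule of the immunoglobulin family, was at 35.3, 30.7 and 29.2 CPM in KO stage IV libraries, against 91.9, 71.3 and 70.6 CPM in WT stage IV libraries. The stage II values were 1.02, 1.56 and 1.70 CPM in KO libraries, against 11.3, 13.1 and 13.2 CPM in WT libraries, lower in KO at both stages and by more at stage II (interaction 1.84 ± 0.24, adjusted p = 0.00314).

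The count of called genes depended on single libraries. With 1 library left out it ranged from 37 to 137. It was 37 without WT stage IV replicate 2, 40 without WT stage II replicate 3, 41 without WT stage IV replicate 3, 44 without KO stage IV replicate 2, 44 without KO stage II replicate 3, 46 without WT stage II replicate 2, 54 without KO stage II replicate 1 and 66 without KO stage IV replicate 3. Of the 113 genes, 34 were called in all 12 of these fits and 4 in none, and all 113 kept the sign of their interaction value in each. The named genes called in all 12 were Col19a1, Rhpn1, Clip3, Cd300lf, Zfp683, Crybg2, Khdc1b, Cma1, Cyp17a1, Capn3, Gzma, Cym, Mcam, Cd3d, S1pr5, As3mt, Klra5, Ccr2, Gm26740, Rora, Apol7e, Thy1 and Slc27a6. Of these, Cd300lf, Cyp17a1, Mcam, Klra5, Gm26740 and Rora lost their call when all 18 libraries were fitted together, and Rhpn1 lost it with limma and quality weights. The 55 called genes not named under the rule of naming had values of 0.71 to 2.04 (38 positive) and -1.01 to -0.61 (17 negative).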

How the data were processed

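RNA was extracted from sorted mouse spleen NK cells and sequenced. The authors deposited raw read counts per gene, with CPM and RPKM values beside them, for each library. Per the submitters' processing notes, STAR 2.0.4 and featureCounts 1.4.5 (Subread) were used. No source used here gives the genome build, the annotation or the strand setting. RPKM values, computed by the authors, were used only for levels per length, and their CPM values were not used, CPM being recomputed from the deposited counts.

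Counts of 12 libraries in 4 groups were filtered with edgeR's filterByExpr, TMM-scaled and fitted with edgeR 4.0.16 (R 4.3.3, quasi-likelihood F-test). The adjusted p is Benjamini-Hochberg over all 13709 genes, and a gene was called under 0.05. SE is the absolute log2 value divided by the square root of F, and the prior count was 0.125 (0.5 within replicate numbers). Printed CPM is TMM-scaled, except marker sums, other-cell markers, Xist, Ddx3y, Eif2s3y, Atf3 and Hspa1a, which are per library total. RefSeq promoter windows (GRCm38.p6) were matched by symbol. The fit was tested on simulated counts.

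Named were Eomes, the 15 highest and 15 lowest called interaction values with a mean of at least 1 CPM, a panel of 23 genes, up to 4 called members per list and direction, and 5 genes per pattern of calls. Other genes were named where a count of 5 or fewer called for it. Members and lists were chosen with earlier results of these data known. Alternatives were RLE and upper-quartile scaling, DESeq2 1.42.0, limma 3.58.1 with quality weights, other filters, all 18 libraries, a replicate block and left-out libraries. Total counts of 18684350 to 26092733 per library bound the precision of low genes.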

Additional observations from a re-analysis of the deposited data

Results flagged for a closer look

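Each value here is a KO effect at stage IV minus the KO effect at stage II, on the log2 scale, for a gene named in the report, and it stands here because edgeR's test of that difference passed at an adjusted p under 0.05.

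Among granule, maturation and receptor genes the positive values were 2.08 for Gzma, 1.71 for Gzmm, 2.83 for Cma1, 1.75 for S1pr5, 1.56 for Klrg1 and 1.16 for Zeb2. Ly49 genes had 1.43 for Klra5, 0.98 for Klra7, 0.90 for Klra9 and 0.90 for Klra6. Other surface proteins had 3.51 for Cd300lf, 1.20 for Lair1, 1.22 for Ccr2, 1.84 for Mcam, 1.79 for Cd3d, 1.38 for Kcnk5 and 1.34 for Ptprs. The neighbours on chromosome 4 had 3.39 for Zfp683, 3.00 for Crybg2 and 1.11 for Ubxn11.

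The other positive values were 6.72 for Col19a1, 5.28 for Rhpn1, 4.80 for Clip3, 4.79 for Pif1, 3.72 for Gm16329, 3.35 for Arhgef10, 3.00 for Khdc1b, 2.64 for Cyp17a1, 2.51 for Ddc, 2.29 for Capn3, 2.04 for Fkbp10, 1.91 for Cym and 1.70 for As3mt. Fkbp10 overlaps Nt5c3b on the other strand and Capn3 overlaps Ganc on the same strand. With 1 library left out, the call held in 1 of 12 fits for Pif1, in 2 each for Gm16329, Arhgef10 and Ddc and in 7 for Fkbp10. Pif1 was at 0.051 to 0.0853 CPM in WT stage IV libraries, so the size of its value is uncertain.

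Among the negative values, transcription factors had -1.16 for Rora, -1.04 for Maf, -0.88 for Ikzf2 and -1.28 for Snai3. Receptors and other surface proteins had -2.52 for Cd200r2, -1.64 for Cd200r1, -1.65 for Cd226, -1.94 for Cxcr3, -1.87 for Thy1, -0.82 for Klrb1b, -1.82 for Ptger2 and -2.20 for Pdcd1lg2. Transporters had -2.31 for Slc27a6 and -0.62 for Slc11a2, and the signalling regulator Cish had -1.11.

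The remaining negative values were -1.94 for Gm4956, -1.92 for 2010300C02Rik, -1.61 for Fam124b, -1.55 for Bicd1, -1.43 for Susd3, -1.19 for Btbd11, -1.19 for Apol7e, -0.92 for Gm26740, -0.76 for Arl15 and -0.61 for Lsp1.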

How the results depend on the processing

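The 113 interaction calls became 293 with DESeq2, 207 with limma and quality weights, 2217 without a filter (1591 of them on genes not tested otherwise), 30 with all 18 libraries and 259 without the 4 libraries numbered 1, an alternative chosen after seeing the data, as was leaving out both WT libraries numbered 1 (139). KO against WT at stage IV gave 317, 328, 603, 72 and 305 calls under these 5 settings, and 93 without the 2 libraries with many low-count genes. At stage II the 5 settings gave 738, 970, 1305, 207 and 874. With all 18 libraries, stage IV against stage II gave 2106 calls in KO and 2135 in WT. With 1 library left out, counts ranged from 37 to 137 for the interaction, 63 to 170 for KO against WT at stage IV, 217 to 537 at stage II, 2422 to 3660 for the stages in KO and 2438 to 3693 in WT. The GGTGTG core was in 22.4% of windows. The value of Tbx21 turned to -0.032 without the 2 libraries with many low-count genes, and that of Ncr1 to 0.092 there, and lay between -0.436 and 0.045 with 1 library left out, turning above 0 without WT stage II replicate 1 and reaching 0.00 without WT stage IV replicate 2, none of them called. The cause was not tested.

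All 113 called genes kept their sign in each alternative that tested them, and 21 kept their call in all of them. Correlations between same-numbered libraries ran from -0.40 to 0.27, not all above 0.1, so this check did not settle whether libraries were paired by number. The lowest, -0.40 and -0.321, came from pairs that held KO stage IV replicate 3 or WT stage II replicate 1. Atf3 was at 3.14 to 5.35 CPM in the 4 libraries numbered 1 and at 30 to 271 CPM in the rest. Hspa1a was at 2.2 to 17.3 CPM in the libraries numbered 3 and at most 0.464 CPM in the rest. A replicate block gave 131 interaction calls, 102 of them shared, and ended those of Cd226, Cd200r1, Gm16329 and Arhgef10. Low counts, 3 libraries a group and pooled spleens limit what these data can show.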
